A study of Mus musculus with 2 samples.

Results

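Group 2 innate lymphoid cells (ILC2) are lymphocytes without antigen receptors that depend on the transcription factor GATA3. They respond to alarmins such as IL-33, which is read by the receptor ST2 (gene Il1rl1). In mature tissue ILC2 this leads to type 2 cytokines such as IL-5 and IL-13. Calca encodes calcitonin and, through alternative splicing of the same gene, the neuropeptide CGRP, which signals through the receptor CALCRL paired with RAMP1 and raises cyclic AMP. ILC2 are known both as a source and as a target of CGRP. RAMP3, another partner of CALCRL, is an accessory protein of adrenomedullin receptors.

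The cells described here are the Calca-positive ILC2 of mouse bone marrow. They were chosen by their unique molecular identifier (UMI) counts, where 1 UMI stands for 1 captured transcript. Each had at least 1 UMI of Gata3, at least 2 UMIs of Il1rl1, Hs3st1 and Il2ra together, at least 2 UMIs of Calca and at most 1 UMI of Cd3d, Cd3e and Cd3g together. Each also had at least 1000 detected genes and at most 10% mitochondrial UMIs. The rule found 637 cells among 7633 that passed the filter on genes and mitochondrial UMIs, namely 370 of 3290 in the wild-type library and 267 of 4343 in the knock-out library. The files hold 28769 cells in all, before any filter.

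The study compared 2 genotypes of the C57BL/6 strain, LCR1+/+ (WT) and LCR1-/- (KO), with 1 library each. For both, marrow cells that were live, negative for lineage markers and positive for CD45 and CD127 were sorted from pooled animals of 8 to 12 weeks, with males and females in equal number. The number of animals was not stated in the labels, and they name no further treatment or allele. The labels do not say where LCR1 lies, so no gene count could be used to check the genotype labels. With 1 library a genotype there is no replicate and no test. Intervals below are 95% intervals that cover counting error only, and genotype cannot be told apart from library, pool of animals or sort.

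The 370 WT cells held 2667659 UMIs (median 5113 a cell, range 1834 to 77477) and the 267 KO cells held 1453036 (median 4524, range 2411 to 42926). In WT, 49 cells above 10000 UMIs carried 38.7% of those UMIs, and in KO 18 such cells carried 21.9%. Those deep cells weigh on sums, so values without them are given where they differ. Of the cell barcode sequences, 75 occurred in both libraries, and 2 WT and 0 KO Calca-positive ILC2 were among them. Cells of 1 library share their pool and preparation and are not replicates.

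Calca and Ramp3 carry much of what follows, and the DNA just before their starts is shown because the pair sits at the top of the differences below. Calca (ENSMUSG00000030669) lies on the minus strand at chr7:114631478-114636357 of GRCm38, with 7 annotated transcripts in GENCODE M21. Counts at the level of the gene cannot separate its calcitonin and CGRP forms. Ramp3 (ENSMUSG00000041046) lies on the plus strand at chr11:6658521-6677475. The sequences are from RefSeq (GRCm38.p6), written 5′ to 3′ on the gene's strand, and end at the base before the first annotated exon. They cover chr7:114636358-114636607 (minus strand) and chr11:6658283-6658520 (plus strand).
Calca: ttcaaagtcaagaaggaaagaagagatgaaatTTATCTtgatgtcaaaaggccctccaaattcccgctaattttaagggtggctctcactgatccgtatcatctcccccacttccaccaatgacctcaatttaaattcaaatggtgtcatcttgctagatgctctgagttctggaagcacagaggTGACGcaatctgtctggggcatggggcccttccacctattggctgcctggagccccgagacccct
Ramp3: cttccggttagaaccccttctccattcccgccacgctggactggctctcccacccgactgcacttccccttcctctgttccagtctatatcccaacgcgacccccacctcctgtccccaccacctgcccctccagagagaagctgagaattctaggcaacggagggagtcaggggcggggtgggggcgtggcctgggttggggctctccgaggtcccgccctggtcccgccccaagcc
The capitals mark matches on either strand to AGATAA, which is bound by factors of the GATA family, and to TGACG, the core of the cyclic AMP response element. The full element TGACGTCA and the AP-1 motif TGANTCA were searched as well, on both strands, and had 0 matches in both windows. TGACG lies within the full element, so each full element also counts as a match to TGACG. In the Calca window the GATA match began 218 bases and the TGACG match 65 bases before the window's end. The Ramp3 window held no match to any of the 4 motifs. Over 32851 RefSeq promoter windows of 250 bases, 9.99% held AGATAA, 17.8% TGACG, 1.55% TGACGTCA and 6.75% the AP-1 motif. These are matches of letters and were not tested for binding.

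Calca itself was used to choose the cells, so its level is a description. The WT cells held 9335 Calca UMIs (3499 CPM, the UMIs of a gene relative to all UMIs of those cells, scaled to a fixed total), with a median of 16 a cell, quartiles of 6 and 35 and a highest value of 199. The KO cells held 6089 (4190 CPM), with a median of 14, quartiles of 6 and 31 and a highest value of 131. The Calca-positive ILC2 carried 81.2% of the Calca UMIs of all WT cells past the filter and 75.3% of those in KO. Just inside the threshold, 31 WT and 15 KO cells had exactly 2 Calca UMIs. Just outside it, 83 WT and 54 KO cells met every other part of the rule with 1. Free RNA can put a UMI into a cell that does not express a gene. Among B lineage cells, which should lack Calca, 16 of 72 in WT and 6 of 140 in KO held at least 1 UMI, and 5 and 2 held at least 2. Those B lineage cells were deeper, with medians of 12134 UMIs in WT and 12420 in KO.

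**Figure D1:**
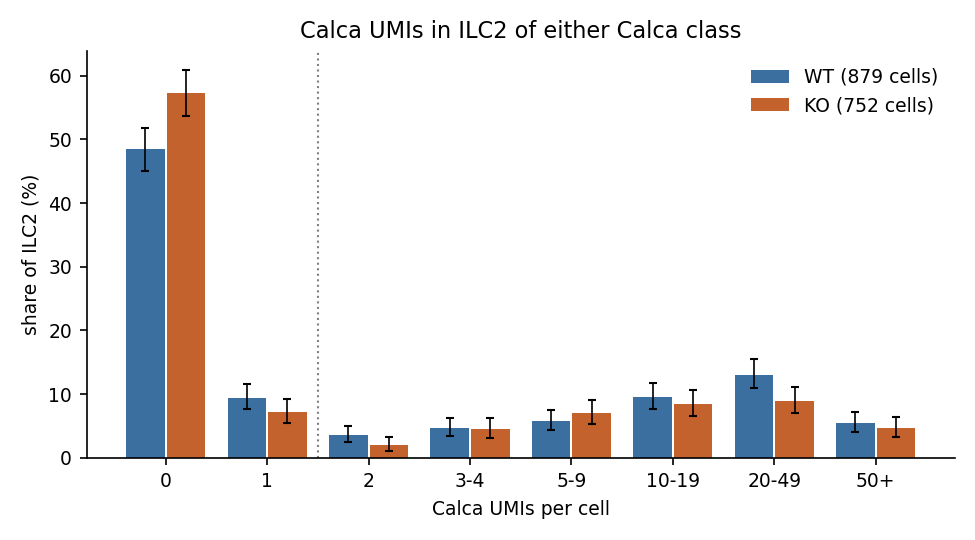
Calca UMIs per cell (horizontal axis, in classes) against the share of ILC2 in percent (vertical axis) for the 879 WT and 752 KO cells that met the rule without its Calca part. Bars are shares with exact binomial 95% intervals and the dotted line is the threshold. Cells with 0 Calca UMIs made up 48.5% in WT and 57.3% in KO, and cells with 20 to 49 made up 13.1% and 8.91%.

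Of the ILC2 as the rule defines them without Calca, 42.1% were Calca-positive in WT (370 of 879, exact interval 38.8 to 45.4%) and 35.5% in KO (267 of 752, 32.1 to 39.0%). The KO share was 0.843 of the WT share (0.718 to 0.990). Against all cells past the filter the shares were 11.2% (10.2 to 12.4%) and 6.15% (5.45 to 6.90%), a ratio of 0.547 (0.465 to 0.642). That second ratio turned with the filter. With at least 500 genes a cell it was 1.52 (1.30 to 1.78), since the WT denominator then grew from 3290 to 10519 cells. The share among ILC2 kept a KO over WT ratio between 0.771 and 0.873 in every alternative filter, threshold or thinning tried, although its interval reached 1 in some of them. The thresholds on Gata3 and on the receptor sum were not varied. Of the cells outside the rule with at least 2 Calca UMIs, 132 of 154 in WT and 98 of 108 in KO missed the receptor part. Their Calca medians differed, at 3 UMIs for the 154 and 11 for the 108, so how this ratio moves with that part was not tested.

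Icos and Ramp3 are markers of these cells that the rule had not used. They were chosen with earlier results of these data known, so their levels describe the cells and do not test the label. Icos, a costimulatory receptor of ILC2, stood at 629 CPM in the WT cells against 64.3 CPM in all other WT cells past the filter. In KO it stood at 900 against 90.4 CPM. These are differences of 9.79-fold (9.15 to 10.5) and 9.95-fold (9.33 to 10.6). Ramp3 stood at 158 against 6.53 CPM in WT and at 145 against 6.05 CPM in KO, 24.2-fold and 23.9-fold. Both markers were thus high in both libraries, and Gata3, Il1rl1 and Hs3st1 were high by the rule. Effector cytokines were not: Il5 summed to 2 UMIs in WT and 3 in KO, Il13 to 4 and 1, and Il9 and Il10 to 0 in both.

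Against all other cells past the filter, 215 of 3306 measured genes (6.5%) were at least 2-fold higher in Calca-positive ILC2 in both libraries and 201 (6.08%) at least 2-fold lower. Measured means at least 50 UMIs over both groups and at least 50 CPM in the higher group, in each library. The cells were selected on counts of the same transcriptome, so these numbers describe them and support nothing further. After Ramp3, the genes with the highest folds included Igsf5, Pard3, a cell polarity protein (14.1-fold in WT and 36.9-fold in KO), Rab27b, a GTPase of secretory vesicles (13.1-fold and 16.3-fold), Neb and Crem. Tnfsf11, which encodes RANKL, was 10.6-fold and 9.03-fold higher, and Tnfrsf18, which encodes GITR, 8.54-fold and 9.6-fold. The lowest included Ly6c2 (9.40-fold and 19.8-fold lower), the NK receptor gene Klrd1 (6.11-fold and 7.30-fold), the chemokine gene Ccl5 (4.61-fold and 7.16-fold) and the lymphoid progenitor marker Ly6d (4.36-fold and 5.29-fold).

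The nearest cells are the Calca-low ILC2, which met every other part of the rule with 0 or 1 Calca UMI (509 in WT, 485 in KO). Beside Calca, the Calca-positive cells had more transcript of Ramp3 and of Crem, a cyclic AMP responsive transcription factor gene, in both libraries. Ramp3 stood at 158 against 11.3 CPM in WT, 14.0-fold (10.3 to 19.4), and at 145 against 15.3 CPM in KO, 9.44-fold (6.83 to 13.3). Crem stood at 191 against 22.3 CPM in WT, 8.56-fold (6.82 to 10.8), and at 222 against 35.6 CPM in KO, 6.22-fold (4.98 to 7.82). After each cell was thinned to 2000 UMIs, 22.1% of Calca-positive and 2.19% of Calca-low WT cells held a Ramp3 UMI, and 22.8% and 2.07% in KO. Unthinned, the shares were 41.4% and 5.30% in WT and 38.2% and 4.95% in KO. Thinned B lineage cells had 0 of 68 and 0 of 140. With a floor of 3 counts this allows a share of thinned cells with a UMI of up to 4.41% and 2.14%, and the exact upper limits are 5.28% and 2.60%.

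Over all 2909 genes measured in both libraries, 61 (2.1%) were at least 2-fold higher in Calca-positive cells in both and 15 (0.516%) at least 2-fold lower. The 61 include Calca itself. Without cells over 10000 UMIs, 58 of the 61 and 10 of the 15 were called again, and with the rule on thinned cells 50 and 6, so the lower genes depend more on these choices. Igsf5, an immunoglobulin superfamily adhesion gene, stood at 92.6 against 15.8 CPM in WT and 110 against 16 CPM in KO. Its identifier in GENCODE M21 (ENSMUSG00000117081) differs from that of the counts, and which locus its count covers was not checked. Dgat1, which encodes an enzyme of the last step of triglyceride synthesis, was 4.95-fold higher in WT and 5.04-fold in KO. C1qtnf12, which encodes a secreted protein, was 4.82-fold and 5.06-fold higher, and Ppp2r3a, a regulatory subunit of protein phosphatase 2A, 6.03-fold and 4.78-fold. Il10ra, a chain of the IL-10 receptor, was 5.4-fold and 4.67-fold higher, and Jdp2, a repressor of the AP-1 family, 5.35-fold and 4.59-fold. The remaining genes of the 12 with the highest folds were Isy1 (5.07-fold and 4.18-fold, tagged in GENCODE M21 as an overlapping locus, so its count is uncertain), Rab27b (4.55-fold and 3.53-fold), Pard3 (3.51-fold and 6.09-fold) and Ctla2a, a cysteine protease inhibitor (4.11-fold and 3.51-fold).

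Lower in the Calca-positive cells were Serpina3g, a protease inhibitor (2.96-fold in WT, 2.85-fold in KO), Gpr183, an oxysterol receptor that guides lymphocytes (2.70-fold and 2.62-fold), and Klrk1, which encodes the NK receptor NKG2D (6.08-fold and 2.22-fold). Cd74 and H2-Eb1, of MHC class II, were 2.05-fold and 2.86-fold, and 2.21-fold and 3.02-fold lower. Ccl5 was 2.09-fold and 2.28-fold lower. Ms4a6b, Filip1l, Kbtbd11 and Clec2d were 2.07-fold to 3.47-fold lower over both libraries. Mcpt8 and Cpa3, protease genes of basophils and mast cells, were also lower in the sums (Mcpt8 2.28-fold and 6.16-fold, Cpa3 2.10-fold and 2.76-fold). The share of thinned cells with a Mcpt8 UMI barely differed, at 17.2% of Calca-positive and 16.1% of Calca-low cells in WT and 9.36% and 9.50% in KO. The 13 genes of the basophil and mast list summed to 2140 CPM in Calca-positive and 4420 CPM in Calca-low WT cells and to 329 and 1210 CPM in KO. Without cells over 10000 UMIs the ratios of Calca-positive over Calca-low cells were 0.549 and 0.808 for Cpa3 and 0.548 and 0.520 for Ccl5, so these 2 were then less than 2-fold lower. Single cells held 52.9%, 15.1%, 24.7% and 42.1% of the sums of the basophil and mast list in that order. The part of such cells or their free RNA in these folds was not tested.

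**Figure D2:**
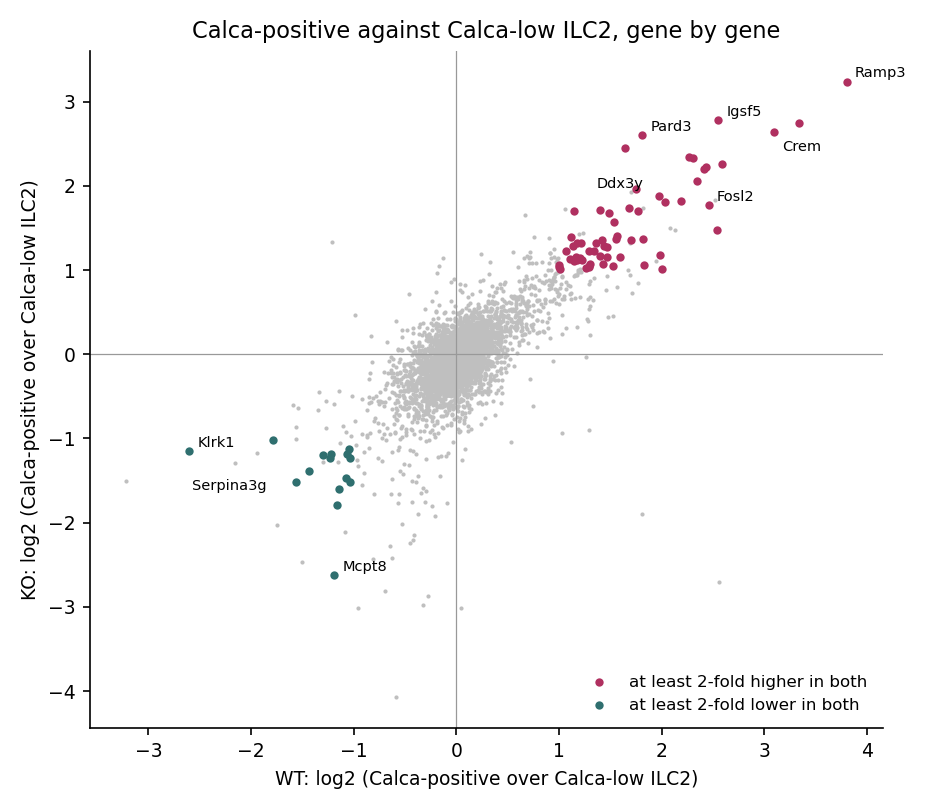
Each point is 1 gene, placed by its log2 ratio of CPM in Calca-positive over Calca-low ILC2 in the WT library (horizontal) and the KO library (vertical). Drawn are 3765 genes with at least 50 UMIs in each library and UMIs in every group, without the genes of the rule. Each also reached 50 CPM in some comparison or was on a gene list. Coloured points are the genes at least 2-fold higher (60 drawn, with Calca left out) or lower (15) in both libraries; Ramp3 lies farthest to the upper right, followed by the unlabelled model AA467197 (10.1-fold and 6.72-fold, named after its values were seen) and Crem, with Klrk1 and Mcpt8 at the lower left.

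Lists of genes with known roles were read at 1.5-fold in both libraries on log2(CPM + 5), where 237 of 7639 genes with at least 50 UMIs (3.1%) were higher and 104 (1.36%) lower. Of 20 measured genes of the cyclic AMP response list, 7 were higher and 0 lower (Crem, Nr4a2, Nr4a3, Pde4d, Sik1, Rgs1 and Rgs2). Nr4a2, an early response nuclear receptor gene, stood at 37.5 against 8.54 CPM in WT and 48.9 against 17.6 CPM in KO. Of 31 measured immediate early genes, 7 were higher and 0 lower. Fosl2, an AP-1 subunit gene, was 5.50-fold and 3.42-fold higher, and Dusp5, a phosphatase gene that restrains MAP kinase signalling, 2.04-fold and 1.89-fold. The list medians were 0.25 in WT and 0.15 in KO for the immediate early genes and 0.37 and 0.27 for the cyclic AMP genes, on the log2 scale, against 0.00 and -0.06 over all genes. Most members of both lists therefore differed little.

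Of 20 measured ILC2 transcription factor genes, 5 were higher and 1 lower at 1.5-fold. Gata3 and Lmo4 were among the 5; Gata3 is part of the rule. Rora, needed for ILC2 development, was 2.45-fold higher in WT (433 CPM in Calca-low cells) and 1.78-fold in KO (810 CPM in Calca-low cells). Nfkb1 was 2.33-fold and 2.5-fold higher and Nfil3, a factor of early innate lymphoid development, 3.54-fold and 3.33-fold. Batf was 1.89-fold and 2.93-fold lower. Among 9 measured costimulatory and checkpoint genes 4 were higher and 1 lower. Pdcd1, which encodes PD-1, stood at 81.7 against 14.1 CPM in WT and 104 against 37.3 CPM in KO, and Tnfrsf18 at 614 against 209 CPM and 660 against 257 CPM. Of 10 measured BCL-2 family genes 1 was higher and 3 lower. Bcl2, which protects from apoptosis, was 1.69-fold and 1.88-fold lower, while Bcl2l11, which encodes the pro-apoptotic protein BIM, was 2.47-fold and 2.11-fold higher. Of 9 measured NK and ILC1 genes 5 were lower and 0 higher. Their 18 listed genes summed to 392 against 717 CPM in WT and 415 against 831 CPM in KO.

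Id2, which encodes an inhibitor of E proteins required by all innate lymphoid lineages, differed the other way. It stood at 632 CPM in Calca-positive against 1046 CPM in Calca-low WT cells, 1.66-fold lower, and at 183 against 271 CPM in KO, 1.48-fold lower. The ratios of Calca-positive over Calca-low were 0.604 (0.570 to 0.639) in WT and 0.676 (0.587 to 0.778) in KO.

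These differences were graded with the Calca level. From ILC2 with 0 to those with 1, 2 to 4, 5 to 9 and 10 or more Calca UMIs, Crem stood at 16.5, 52.3, 91.5, 126 and 231 CPM in WT and at 33.0, 56.3, 77.2, 174 and 280 CPM in KO. Ramp3 stood at 7.80, 29.2, 85.3, 56.3 and 198 CPM in WT and at 14.3, 23.7, 44.1, 76.0 and 196 CPM in KO. Crem thus increased at every step in both libraries, and Ramp3 did so in KO and with 1 exception in WT, where the intervals of the classes 2 to 4 (61.2 to 116) and 5 to 9 (34.8 to 86.0) overlap. Tnfrsf18 went from 189 to 708 CPM in WT and from 249.03 to 717 CPM in KO between the outer classes. Id2 went from 1082 (1047 to 1118) to 560 (526 to 596) CPM in WT and from 273 (253 to 293) to 158 (133 to 186) CPM in KO. Bcl2 went from 440 to 217 CPM and from 480 to 177 CPM. Il1rl1 showed no such grade, with 425 and 523 CPM in the outer classes of WT and 417 and 386 CPM in those of KO. The rule used Il1rl1 in every class, so it is no neutral contrast, and the other rule genes did differ. Gata3 went from 659 to 1276 CPM in WT and from 698 to 1368 CPM in KO. Hs3st1 went from 103 to 247 CPM and from 193 to 313 CPM, and Il2ra from 317 to 265 CPM and from 314 to 197 CPM. Depth was somewhat lower in the classes with more Calca, though not at every step. In the same order, the median UMIs per cell were 5992, 5797, 4929, 5108 and 5148 in WT. In KO they were 5006, 5139, 5022, 4262 and 4422.

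**Figure D3:**
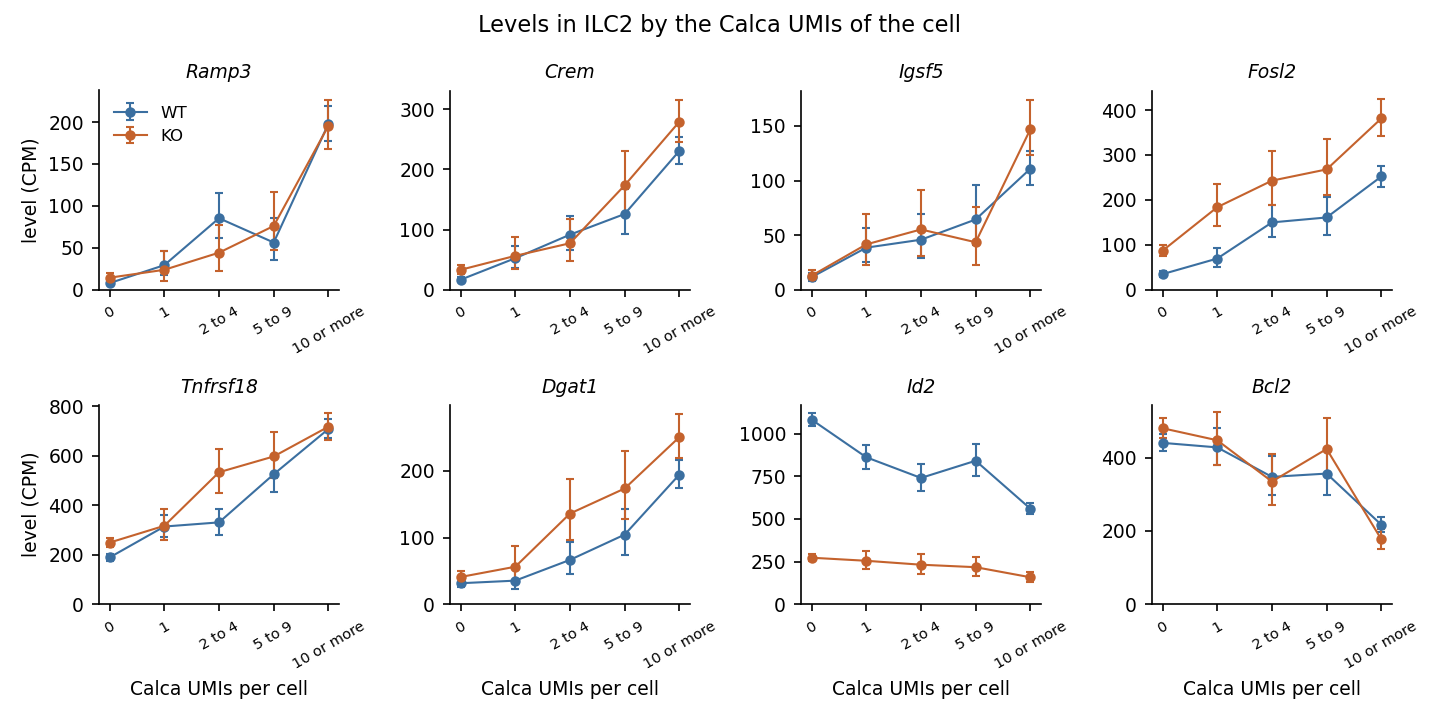
Levels in CPM (vertical axes, from 0) of 8 genes in ILC2 grouped by the Calca UMIs of the cell (horizontal axes), for WT and KO. Points are sums over the cells of a class with exact Poisson 95% intervals. Ramp3, Crem, Igsf5, Fosl2, Tnfrsf18 and Dgat1 are highest in cells with 10 or more Calca UMIs and Id2 and Bcl2 lowest there, in both libraries, and the Id2 lines of WT and KO stay apart at every class.

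Among the genes higher in the Calca-positive cells were Ddx3y and Eif2s3y, which lie on the Y chromosome, and among those lower was Tsix, the antisense partner of Xist, the RNA that silences an X chromosome in female cells. Ddx3y stood at 70.1 against 17.8 CPM in WT and 83.3 against 22.6 CPM in KO. Xist stood at 702 against 1375 CPM in WT and 600 against 1433 CPM in KO. These genes fall outside the rule for named genes and were followed up after their values were seen. As both pools mixed males and females, each ILC2 was then classed by its UMIs of 4 Y-linked genes (Ddx3y, Eif2s3y, Kdm5d and Uty) and of Xist.

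Among ILC2 with Y-linked UMIs and no Xist, 79.4% were Calca-positive in WT (170 of 214, 73.4 to 84.6%) and 68.7% in KO (114 of 166, 61.0 to 75.6%). Among ILC2 with Xist UMIs and no Y-linked UMIs, 19% were Calca-positive in WT (91 of 479, 15.6 to 22.8%) and 16.4% in KO (71 of 432, 13.1 to 20.3%). The share was thus 4.18-fold higher (3.22 to 5.46) in the Y-linked class in WT and 4.18-fold higher (3.08 to 5.70) in KO. Cells with 10 or more Calca UMIs made up 55.6% and 51.2% of the Y-linked class and 10.6% and 4.40% of the Xist class, in WT and KO. With the rule applied to cells thinned to 2000 UMIs the shares were 70.8% and 14.6% in WT and 69.7% and 13.1% in KO. The median depth of the Calca-positive cells was 4938 UMIs in the Y-linked and 6379 in the Xist class in WT, and 4454 and 4983 in KO. Cells outside the ILC2 rule showed no comparable gap in WT: 4.89% of 470 Y-linked and 5.60% of 1356 Xist cells held at least 2 Calca UMIs. In KO there was a gap outside the rule as well, at 4.02% of 1466 Y-linked and 1.20% of 1420 Xist cells. The classes were uneven between the libraries. Of all cells past the filter, the Y-linked class made up 20.8% in WT and 37.6% in KO, and the Xist class 55.8% and 42.6%. Calca-positive ILC2 were 170 of 684 WT and 114 of 1632 KO cells of the Y-linked class. In the Xist class they were 91 of 1835 and 71 of 1852. The ratio of 0.547 among all cells past the filter pools these classes. Each library is 1 pool, so sex cannot be told apart here from the individual animals or from their number of cells. The grade with the Calca level given above was not read within these classes, so it cannot be told apart from their uneven Calca levels.

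**Figure D4:**
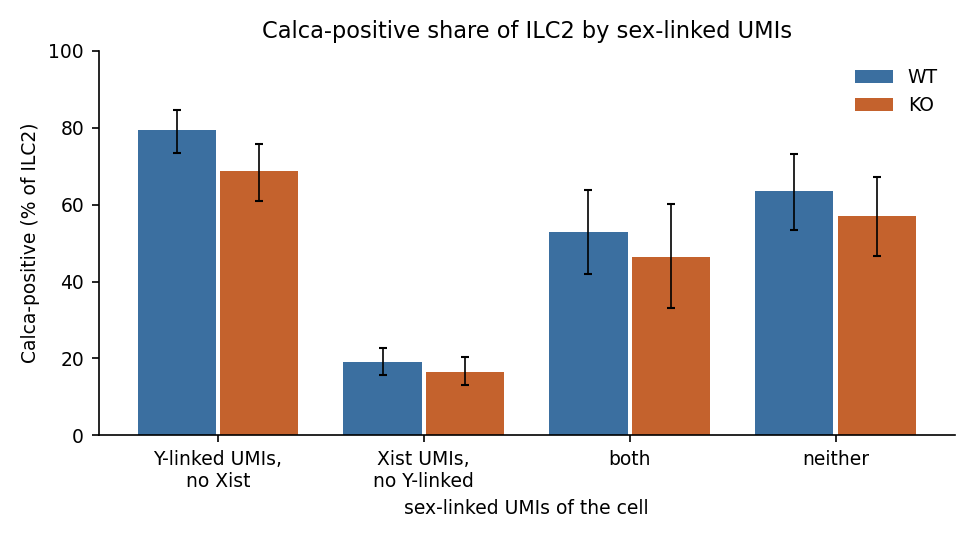
Share of ILC2 that were Calca-positive (vertical axis, percent) by the sex-linked UMIs of the cell (horizontal axis), for WT and KO. Bars are shares with exact binomial 95% intervals; the class with Y-linked UMIs and no Xist stands at 79.4% and 68.7%, and the class with Xist and no Y-linked UMIs at 19% and 16.4%. Cells with both (46 of 87 and 26 of 56) or neither (63 of 99 and 56 of 98) lie between them.

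The difference from Calca-low ILC2 was then read within each class. Leaving out Calca and the sex-linked genes, 58 genes had been at least 2-fold higher in both libraries. All 58 were above 1-fold in the Y-linked class and in the Xist class of each library, with median folds of 2.18 and 2.92 in WT and 3.36 and 2.04 in KO. Of the 14 lower genes, 13 (Y-linked class of WT) or 14 (the other 3 classes) were below 1-fold. The 58 and the 14 had been chosen on sums that include these same cells, so their directions were largely set by that choice and are no support. Crem was 9.32-fold higher (5.12 to 18.9) in the Y-linked and 9.78-fold (6.96 to 14.0) in the Xist class of WT, and 5.42-fold (3.36 to 9.22) and 3.51-fold (2.37 to 5.14) in KO. Ramp3 was 6.93-fold and 18.0-fold higher in WT and 13.7-fold and 2.63-fold in KO. Id2 was lower in all 4, with ratios of 0.738 and 0.548 in WT and 0.584 and 0.633 in KO. Dgat1 was uneven, at 1.28-fold (0.930 to 1.80) and 10.4-fold (7.54 to 14.7) in WT.

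Compared with Zbtb16-positive ILC precursors (Zbtb16 at least 2 UMIs, at most 1 UMI of Il1rl1, Hs3st1 and Il2ra together and at most 1 of the Cd3 genes; 120 WT and 373 KO cells), 212 of 3278 measured genes (6.47%) were at least 2-fold higher in both libraries and 134 (4.09%) lower. The precursors were deeper, with medians of 13187 UMIs in WT and 10276 in KO. Beyond receptors that the rule used, Pard3 (51.3-fold in WT and 48.0-fold in KO), Rnf128, a ubiquitin ligase of lymphocytes (39.5-fold and 102-fold), Ptpn13, a tyrosine phosphatase (54.6-fold and 27.9-fold), Metrnl, a secreted protein (25.5-fold and 27.0-fold), and the prostacyclin receptor gene Ptgir (19.1-fold and 26.7-fold) were higher. The early lymphoid factor Tcf7 stood at 29.99 CPM in Calca-positive cells against 574 CPM in precursors in WT, and at 37.2 against 568 CPM in KO. Tox2 (67.6-fold and 23.8-fold), Fgf3 (42.4-fold and 58.3-fold), Cacna1e, a calcium channel subunit (59.2-fold and 25.6-fold), and Igfbp4 (13.7-fold and 9.80-fold) were also lower. Zbtb16 defined the precursors and was lower by that choice, yet within ILC2 it was 2.09-fold higher in Calca-positive than in Calca-low cells in WT and 2.33-fold in KO.

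Of the CGRP receptor genes, Ramp1 was well detected and Calcrl was sparse. Of 21 listed genes of CGRP and other neuropeptides, 6 had at least 50 UMIs over the Calca-positive cells of both libraries. Ramp1, the partner that makes CALCRL a CGRP receptor, stood at 248.5 CPM in WT (230 to 268) and 212 in KO (189 to 237), against 452 and 471 CPM in all other cells. After thinning, 38.1% of WT and 28.8% of KO cells held a Ramp1 UMI, beside 30.6% and 34.1% of Calca-low cells and 48.5% and 55.7% of B lineage cells. Calcrl, the receptor itself, stood at 22.9 CPM (17.5 to 29.4) and 17.9 (11.7 to 26.2). After thinning, 4.90% of WT and 2.62% of KO cells held a Calcrl UMI, beside 4.57% and 4.75% of Calca-low cells and 11.8% and 5.71% of B lineage cells. Whether B lineage cells express Calcrl was not tested, so these shares do not show how much of the signal is free RNA. Unthinned, it was 11.9% and 8.24%, against 34.7% and 25.7% in B lineage cells. Crcp, an intracellular component of CGRP receptors, stood at 23.2 and 13.8 CPM, and Vipr2, a receptor of the neuropeptide VIP, at 27.4 and 28.2 CPM against 8.68 and 5.66 CPM in other cells. Calcb, the gene of a second CGRP, summed to 3 and 4 UMIs. The neuromedin U receptor gene Nmur1 summed to 18 and 6 UMIs. Adcyap1, Nmu, Tac1, Vip and Calcr were at 0 in both.

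Type 2 effector genes were sparse. Of 17 listed, 3 reached 50 UMIs in the Calca-positive cells of both libraries together (Areg, Ccl5 and Furin). Areg, an epidermal growth factor ligand gene, stood at 19.1 CPM in WT and 33.0 in KO, against 4.52 and 11.7 CPM in Calca-low cells. Thinned shares of cells with an Areg UMI were 2.72% and 3.00%. Furin, a protease gene of peptide precursors, stood at 96.7 and 107 CPM. Il4 stood at 13.5 and 4.82 CPM, below the 22.1 and 10.98 CPM of Calca-low cells. Tnf stood at 7.12 CPM and 18.6 CPM, Csf2 at 2.62 and 1.38 CPM, Il2 at 6.75 and 3.44 CPM and Lif at 3.00 and 8.26 CPM. Cxcl2 had 7 UMIs in WT and 29 in KO. Il6, Ccl1, Tph1 and Penk each had at most 9 UMIs in either library.

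Between the genotypes, Id2 was the clearest difference of a lineage gene within Calca-positive ILC2. Calca-low ILC2 also held less of it in KO (1046 CPM in WT and 271 in KO). In the Calca-positive cells its level was 632 CPM in WT (1686 UMIs) and 183 CPM in KO (266 UMIs), 3.45-fold lower in KO (3.03 to 3.94). After thinning, 57.8% of WT (52.5 to 62.9%) and 25.8% of KO cells (20.7 to 31.5%) held an Id2 UMI, beside 8.82% and 4.29% in B lineage cells. Unthinned, the shares were 80.3% and 44.6%, with medians of 5113 and 4524 UMIs. The KO over WT ratio was 0.290 over all cells, 0.283 without cells over 10000 UMIs, 0.285 with every cell weighted equally, 0.290 (0.235 to 0.354) in the Y-linked class and 0.268 (0.203 to 0.349) in the Xist class. Id2 (ENSMUSG00000020644) lies at chr12:25093799-25097140 on the minus strand. Of 12 measured neighbour genes on that chromosome 1 was at least 1.5-fold higher and 2 lower in KO, and 1 and 1 without the deep cells, where 2.02% of all 7529 genes with at least 50 UMIs were higher and 6.79% lower. A count this small cannot be set apart from those shares. Odc1, the first enzyme of polyamine synthesis, stood at 162 CPM in WT and 265 in KO, and Kidins220 and Ywhaq at 81.3 and 164 CPM in WT against 76.4 and 139 CPM in KO. Rrm2, which is also a cell cycle gene, and Adam17 were the 2 lower ones (36.7 and 29.99 CPM in WT, 4.13 and 15.8 in KO).

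Over 3146 genes with at least 50 UMIs in all and 50 CPM in the higher library, 13 (0.413%) were at least 2-fold higher in KO with an interval that left out 1, and 42 (1.34%) were lower. Named genes that were higher numbered 9. Cxcl10, a chemokine gene induced by interferons, had a level of 14.6 CPM in the WT cells against 72.3 in the KO cells, 4.94-fold (3.39 to 7.33), with 20.0% of its KO UMIs in 1 cell. Hes1, a Notch target, had 82.1 and 198 CPM, the early response factor Klf4 160 and 356 CPM, Rgs2, which dampens G protein signals, 190 and 405 CPM, and Rel, an NF-kB subunit gene, 39.7 and 83.3 CPM. Tiparp, Baiap2 and Il2rb, a chain of the IL-2 and IL-15 receptors, were 2.27-fold, 2.12-fold and 2.02-fold higher. Cxcl10, Tiparp, Rgs2, Baiap2 and Rel remained at least 2-fold higher both with equal weights and without the deep cells, where Hes1, Klf4 and Il2rb fell to between 1.51-fold and 1.99-fold. H2-Eb1 was 2.14-fold higher, but 65.7% of its WT UMIs lay in 1 cell and the ratio was 0.830 without the cells marked as doublets. Each of the 9 was also higher in KO in Calca-low ILC2, so these differences are not particular to the Calca-positive cells. In Calca-low cells Cxcl10 stood at 12.3 CPM in WT and 61.9 in KO, Hes1 at 27.1 and 88.9, Klf4 at 139 and 306 and Rgs2 at 85.1 and 212. The smallest shift there was that of Baiap2, at 17.6 and 26.3 CPM.

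Immediate early genes, which are transcribed soon after a stimulus, leaned to KO. Of 30 measured, 17 were at least 1.5-fold higher in KO and 0 lower, where 2.02% of 7529 genes (152) were higher and 6.79% (511) lower. The median difference of the list was 0.62 on the log2 scale, against -0.09 over all genes. Dusp1 stood at 382 and 715 CPM, Fos at 1788 and 3132 CPM, Tnfaip3, whose enzyme limits NF-kB signals, at 216 and 398 CPM and Gadd45b at 19.5 and 46.8 CPM. With equal weights 13 were higher, and without the deep cells 11. Each library is a single preparation, so preparation and genotype cannot be told apart. Among 20 measured cyclic AMP response genes 5 were higher and 0 lower, Rgs2 first among them, and 2 were higher with equal weights and 2 without the deep cells.

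Of the 42 lower genes, 35 are named genes, and many rest on few cells. For 17 of the 42, 1 WT cell held at least 25% of the WT UMIs, and for 13 at least 50%. Basophil and granulocyte genes are among these: 52.6% of the Prss34, 62.7% of the Mcpt8, 81.6% of the Ctsg and 86.1% of the S100a8 UMIs of WT lay in 1 cell each. The KO over WT ratio of Prss34 was 0.0616 over all cells and 0.379 without the deep cells, and that of Mcpt8 0.106 and 0.375. Of 11 measured basophil and mast genes 9 were at least 1.5-fold lower in KO and 0 higher, while without the deep cells 2 were lower and 2 higher. In KO the defining granulocyte genes Elane, Prg2 and Epx were at 0. Without cells over 10000 UMIs, 23 genes were lower in place of 42, with 15 in common.

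The cell cycle list also changed with the deep cells. Of 23 measured cell cycle genes, 21 were at least 1.5-fold lower in KO over all cells (list median -1.58 on the log2 scale), 15 with equal weights and 7 without the deep cells (median -0.46). Mki67, a marker of cycling cells, stood at 165 CPM in WT and 17.9 in KO, a ratio of 0.109 (0.0702 to 0.162), and the ratio was 0.855 without the deep cells. Top2a, a topoisomerase gene of cycling cells, stood at 204 and 34.4 CPM, with ratios of 0.169 and 0.364. Counted per cell at 2000 UMIs, 50.4% of WT (45.2 to 55.6%) and 34.5% of KO cells (28.8 to 40.5%) held at least 3 UMIs of the list, which includes Stmn1. In Calca-low cells these shares were 49.5% and 41.5%. The summed levels of single genes such as Mki67 thus moved with the deep cells. The share of cells with list UMIs was lower in KO at equal depth, with the deep cells kept in. It was not read without them.

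Lower genes that did not rest on deep cells were Stmn1, which encodes a microtubule regulator (529 CPM in WT and 206 in KO, ratio 0.391 over all cells and 0.381 without the deep ones), and Ltb4r1, the leukotriene B4 receptor gene (126 and 53.7 CPM, 0.426 and 0.393). Zeb2, a transcriptional repressor gene, stood at 96.7 and 34.4 CPM (0.356 and 0.393) and Egln1, whose enzyme marks hypoxia-inducible factors for decay, at 76.5 and 28.9 CPM (0.378 and 0.435). All of them were also lower in KO in Calca-low ILC2. Stmn1 stood there at 503 CPM in WT and 355 in KO, Ltb4r1 at 167 and 103.5, Zeb2 at 50.2 and 36.3 and Egln1 at 55.0 and 28.6. Ltb4r1 was one of 2 lower genes among 9 measured lipid mediator genes, with Ptger4 (25.1 and 11.01 CPM) the other and 0 higher. Within the Y-linked and Xist classes, the ratio of Stmn1 was 0.571 (0.485 to 0.671) and 0.0702 (0.0413 to 0.112), and that of Ltb4r1 0.354 (0.225 to 0.539) and 0.602 (0.388 to 0.910). All 9 higher and 34 of the 35 lower named genes kept their direction in both classes, and for 6 and 25 of them the interval left out 1 in both. These genes had been called on the same cells, and the deep cells were kept in, so this is a description and no support. The 25 include Mki67, Prss34 and Mcpt8, whose ratios moved with the deep cells. The 6 include H2-Eb1, whose ratio turned without the marked doublets. In the Xist class the intervals of Hes1 (ratio 1.23, 0.803 to 1.86), Il2rb (1.10, 0.680 to 1.75) and Baiap2 (1.57, 0.851 to 2.85) held 1. In the Y-linked class the ratios of these genes were 3.54, 1.86 and 2.58. The KO over WT ratio of the Calca-positive share of ILC2 was 0.865 in either class (0.676 to 1.10 and 0.625 to 1.19).

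**Figure D5:**
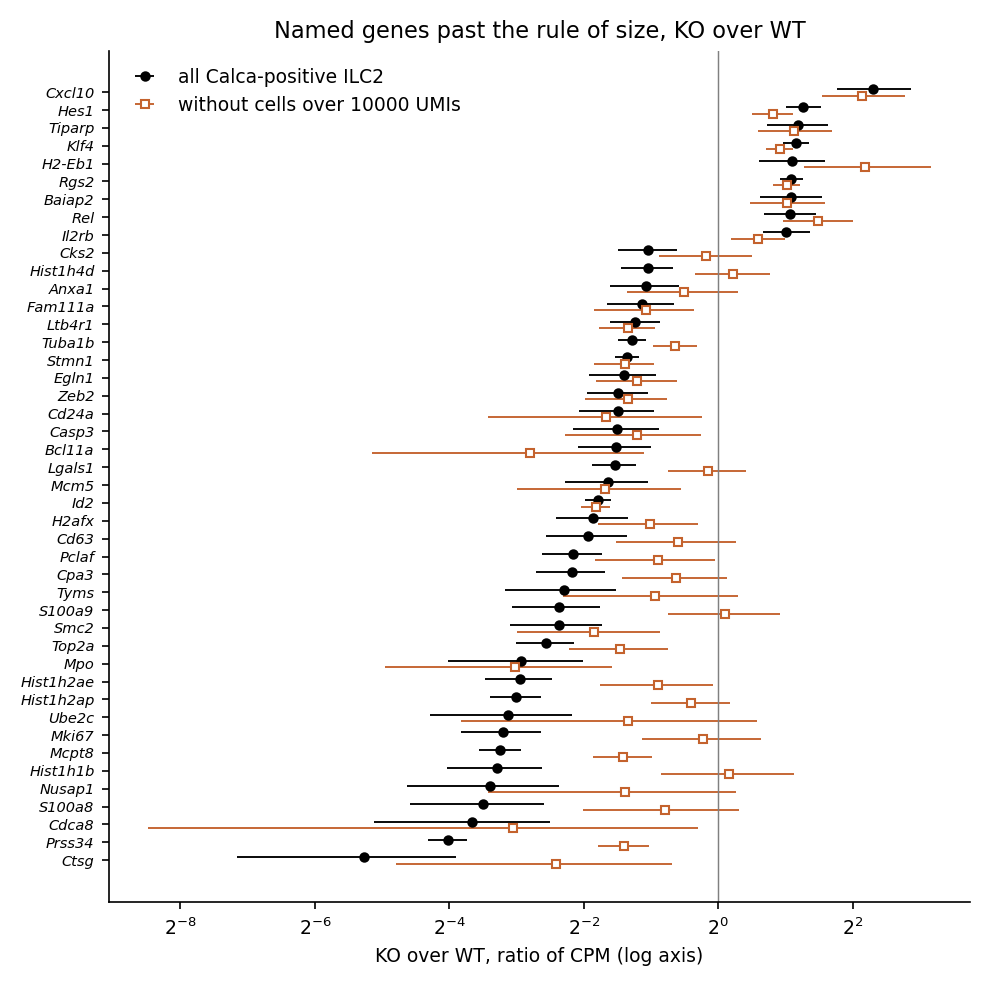
Ratio of CPM in KO over WT Calca-positive ILC2 (horizontal log axis) for the 44 named genes past the rule of size (vertical axis). Filled circles are all cells and open squares leave out cells over 10000 UMIs, with exact binomial 95% intervals; Id2, Stmn1, Ltb4r1 and Zeb2 keep their place, while Mki67, Lgals1, S100a9 and Hist1h1b move to near 1.

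Of 29 measured ILC2 identity genes 1 was at least 1.5-fold higher in KO (Areg) and 1 lower (Id2), counts near the 2.02% and 6.79% of all genes, with a list median of -0.01 on the log2 scale. With equal weights 1 was higher and 4 were lower. Gata3 stood at 1255 CPM in WT and 1247 in KO, Il1rl1 at 542 and 440 CPM, Hs3st1 at 228 and 293 CPM and Icos at 629 and 900 CPM. Ramp3 stood at 158 and 145 CPM, a KO over WT ratio of 0.916 (0.772 to 1.08), and Crem at 191 and 222 CPM. Within the Y-linked class the Ramp3 ratio was 0.972 (0.764 to 1.23) and in the Xist class 0.310 (0.175 to 0.517). Each of these marker ratios over all cells was thus under 1.5-fold in either direction, while the Ramp3 ratio was lower in the 91 WT and 71 KO cells of the Xist class. Gata3, Il1rl1 and Hs3st1 were part of the rule in both libraries, so their ratios are shaped by the selection and only describe the cells.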

How the data were processed

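Gene counts (UMIs per gene and cell) were deposited by the authors as 1 matrix a library, made with Cell Ranger (3.1.0 per the file headers). The submitters' processing notes also name Seurat and mm10; the annotation release is unknown. The members, gene lists and comparisons were chosen with earlier results of these data known. Cells with at least 1000 genes and at most 10% mitochondrial UMIs were kept. Counts were summed per library and cell class and given as CPM with exact Poisson intervals; shares have Clopper-Pearson intervals, ratios exact conditional binomial ones, all at 95%. A gene was called with 50 or more UMIs in all, 50 or more CPM in the higher group, a 2-fold ratio and, between genotypes, an interval off 1; ratios within a library had to hold in both. Lists used 1.5-fold on log2(CPM + 5). Named genes were up to 12 per direction and comparison with the most extreme folds, leaving out sex-linked, mitochondrial, ribosomal protein, haemoglobin and antigen receptor genes and models without a symbol, with the markers, Id2 and its neighbours, the CGRP and type 2 lists and up to 4 genes of every other list. Shares of cells were compared after thinning each cell to 2000 UMIs, which left out 3 WT and 0 KO members and 4 WT B lineage cells. Scrublet (scanpy 1.11.5) marked 7 WT cells, too few to be used, so the 8% with the highest scores (263, of which 35 members) were left out in the WT alternative; in KO it marked 56 (10 members). Doublets stayed in the main values. TMM factors came from edgeR 4.0.16 (R 4.3.3). The scripts ran in Python 3.11.15 and were tested on simulated data. The sex-linked classes and the values without cells over 10000 UMIs were chosen after seeing the data.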

Additional observations from a re-analysis of the deposited data

Results flagged for a closer look

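Some values had opposite directions in the 2 libraries, and these differences were not tested. The median difference of Calca-positive from Calca-low ILC2 over the measured B lineage genes was 0.42 on the log2 scale in WT and -0.33 in KO. For the erythroid genes it was 1.34 in WT and -1.03 in KO, and 1 WT cell held 93.9% of the erythroid UMIs of the WT Calca-positive cells. Ifitm1, an interferon-induced membrane protein gene, had a ratio of Calca-positive over Calca-low cells of 0.432 in WT and 2.52 in KO.

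For 4 genes the KO over WT ratio in Calca-positive ILC2 went in opposite directions in the cells with Y-linked UMIs and the cells with Xist UMIs, with both intervals off 1, and the difference between the classes was not tested. The ratios were 1.77 and 0.616 for Bcl2l11, 1.59 and 0.509 for Cstb, a cysteine protease inhibitor gene, 1.64 and 0.241 for Igsf5, and 0.896 and 1.30 for Nfkb1, with the Y-linked class first.

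Calca UMIs also occurred outside the rule. Past the filter, 154 WT and 108 KO cells outside it had at least 2 Calca UMIs, with Calca medians of 3 and 11; they were among the other cells of the comparisons above. In KO, 98 of the 108 missed the receptor part of the rule. The sums of all 108 held 151 CPM of Ramp3, 186 of Crem and 701 of Gata3. Below 1000 genes, 830 WT cells (median 892.5 UMIs) and 15 KO cells (median 1731 UMIs) had at least 2 Calca UMIs and were removed by the filter.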

How the results depend on the processing

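No paired analysis was possible because each genotype has 1 library and no replicates. The KO over WT ratio of Calca-positive cells among all cells past the filter was 1.52 with at least 500 genes a cell, 0.329 with at least 1500 genes, 0.445 with at most 5% mitochondrial UMIs and 0.666 without cells over 10000 UMIs. The Id2 ratio with at most 5% mitochondrial UMIs was 0.246. Genes lower in KO numbered 69 with at most 5% mitochondrial UMIs, 23 without cells over 10000 UMIs, 164 with minimums of 20 UMIs and 20 CPM and 229 with no CPM minimum. Genes higher in KO numbered 22 with the rule on thinned cells, 38 with the minimums of 20 and 40 with no CPM minimum. List genes at least 1.5-fold higher in KO numbered 35, and 22 with the rule on thinned cells. Those lower numbered 57, with 16 on thinned cells and 29 without cells over 10000 UMIs. With a minimum of 20 CPM, 93 genes were higher and 24 lower than in Calca-low cells, and 422 lower than in other cells. With equal weights 213 genes were lower than in ILC precursors. Ratios of KO over WT that turned were S100a9 (3.75 with at most 5% mitochondrial UMIs, 2.27 on thinned cells and 1.07 without cells over 10000 UMIs), H2-Eb1 (0.830 without marked doublets), Hist1h1b and Hist1h4d (1.11 and 1.16 without cells over 10000 UMIs, 1.42 and 1.31 on thinned cells) and, on thinned cells, Cks2 (1.14), Hist1h2ap (1.01), Mki67 (1.55), S100a8 (1.02) and Tyms (1.22). The cause was not tested. Depth limits genes under 50 UMIs, such as the type 2 cytokines.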
